A study of Homo sapiens with 20 samples.

Results

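MLL1 binding was mapped by ChIP-seq in HCT116 cells, an established human colorectal carcinoma line, in which MLL4 was knocked out (KO) or left wild type (WT). The 2 MLL1 peak lists, 1 per genotype, are among 18 peak lists of a series of 20 samples. The other lists cover H3K4me3, H3K27ac and p53 with 2 libraries per genotype, and H3K4me1 and MLL4 with 1. The labels name no treatment, do not say whether the KO cells are 1 clone, and do not name the change made in the MLL4 gene. On chromosomes 1 to 22 the KO list held 28515 peaks and the WT list 36419 peaks. Peaks of both lists that overlapped by at least 1 bp were merged, which gave 46868 MLL1 regions. A region was called KO-only, WT-only or shared according to the lists that had a peak in it. There was 1 MLL1 library per genotype, so no difference below has a replicate check or a p-value. Intervals are 95% Wilson intervals and cover counting error over regions only.

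MLL1 (encoded by KMT2A) is a histone methyltransferase that places methyl groups on lysine 4 of histone H3. It works in a complex with WDR5, RBBP5, ASH2L and DPY30, is tethered through menin (MEN1) and LEDGF (PSIP1), and has a CXXC domain that binds unmethylated CpG DNA. It is known for its binding at the starts of active CpG island genes and of HOX genes, where H3K4me3 is found. MLL4 (encoded by KMT2D) is a related enzyme known for placing H3K4me1 at enhancers.

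The MLL4 list of KO cells held 257 peaks on chromosomes 1 to 22, against 55887 in WT cells. At the starts of 10 colon epithelial marker genes, H3K4me3 was called at 8 in each KO library and at 9 in each WT library, and VIL1 had it in none. It was called at 1 of 5 blood markers in every library, and at none of 3 endothelial markers. Among fibroblast markers 2 of 4 had it in every library. Of 3 neuronal markers, H3K4me3 was called at 3 and 2 in the KO libraries and at 2 in each WT library. For scale, H3K4me3 was called per library at 98.9 to 99.3% of the 11128 protein-coding genes with MLL1 in both lists. It was called at 3.67 to 5.53% of the 6515 genes with MLL1 in neither. The marker counts are small and are not a test of cell type.

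The DNA at a few gene starts with and without MLL1 gives examples of their base composition. The windows end before most MLL1 summits, which lay at a median of 171 bp (KO) and 204 bp (WT) downstream of the start in shared promoter regions. The sequences below run from 250 bases before to 50 bases after a gene start, on the strand of the gene, from RefSeq on GRCh38.p14, with every CG in capitals. SIMC1 (chr5:176238174-176238473, + strand) and CHRD (chr3:184379804-184380103, + strand) were overlapped by a peak in the KO list and by none in the WT list. They are shown because their promoters had the highest MLL1 fold enrichment among those called in KO alone. SIMC1 has 44 CG in 300 bases and CHRD has 36.
SIMC1: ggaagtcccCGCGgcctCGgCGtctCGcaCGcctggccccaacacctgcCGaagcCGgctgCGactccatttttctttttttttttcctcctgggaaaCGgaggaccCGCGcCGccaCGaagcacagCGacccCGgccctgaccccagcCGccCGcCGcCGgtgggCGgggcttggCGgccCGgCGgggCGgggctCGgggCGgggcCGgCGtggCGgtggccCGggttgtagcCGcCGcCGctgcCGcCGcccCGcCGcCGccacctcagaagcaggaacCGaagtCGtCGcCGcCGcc
CHRD: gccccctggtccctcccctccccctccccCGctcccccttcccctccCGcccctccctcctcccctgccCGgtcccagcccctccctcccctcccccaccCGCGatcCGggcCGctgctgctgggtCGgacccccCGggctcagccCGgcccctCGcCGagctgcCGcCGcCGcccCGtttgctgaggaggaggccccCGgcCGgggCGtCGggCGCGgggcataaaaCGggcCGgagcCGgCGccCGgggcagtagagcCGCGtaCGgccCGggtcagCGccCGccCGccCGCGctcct

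VWA8 (chr13:41961060-41961359, - strand) lies in the shared region with the highest mean rank, and EIF4E (chr4:98929084-98929383, - strand) is partly overlapped by a WT-only region. The windows of both genes carried an MLL1 peak in both lists. VWA8 has 32 CG and EIF4E has 19.
VWA8: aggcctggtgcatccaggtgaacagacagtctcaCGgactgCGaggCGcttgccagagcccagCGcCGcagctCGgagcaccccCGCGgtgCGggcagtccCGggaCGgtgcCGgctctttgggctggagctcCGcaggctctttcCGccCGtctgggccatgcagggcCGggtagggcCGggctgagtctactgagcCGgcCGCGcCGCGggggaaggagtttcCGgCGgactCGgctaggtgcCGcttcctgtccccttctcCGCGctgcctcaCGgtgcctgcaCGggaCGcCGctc
EIF4E: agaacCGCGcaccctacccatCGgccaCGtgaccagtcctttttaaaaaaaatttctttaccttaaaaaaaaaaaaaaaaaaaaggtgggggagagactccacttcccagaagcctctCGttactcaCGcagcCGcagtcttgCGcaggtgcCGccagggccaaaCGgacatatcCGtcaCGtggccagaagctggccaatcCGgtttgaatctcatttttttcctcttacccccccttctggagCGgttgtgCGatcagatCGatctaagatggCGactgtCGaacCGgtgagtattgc

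HOXA2 (chr7:27102634-27102933, - strand) and HOXD1 (chr2:176188418-176188717, + strand) had no MLL1 peak in either list. HOXA2 has 11 CG, whereas HOXD1 has 36, as many as CHRD. Neither HOXA2 nor HOXD1 had H3K4me3 called in any library.
HOXA2: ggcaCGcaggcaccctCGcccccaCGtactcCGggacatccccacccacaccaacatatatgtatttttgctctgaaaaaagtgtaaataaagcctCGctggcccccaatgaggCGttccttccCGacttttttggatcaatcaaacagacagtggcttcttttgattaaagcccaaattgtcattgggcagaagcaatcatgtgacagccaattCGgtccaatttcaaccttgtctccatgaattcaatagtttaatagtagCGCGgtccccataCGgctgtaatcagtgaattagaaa
HOXD1: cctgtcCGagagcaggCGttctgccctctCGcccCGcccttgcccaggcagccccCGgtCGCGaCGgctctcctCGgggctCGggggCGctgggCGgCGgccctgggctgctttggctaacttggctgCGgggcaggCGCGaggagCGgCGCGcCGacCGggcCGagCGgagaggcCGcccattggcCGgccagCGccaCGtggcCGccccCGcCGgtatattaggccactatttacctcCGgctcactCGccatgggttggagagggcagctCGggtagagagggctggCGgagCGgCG

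Over all 300-base windows of this kind in the promoter table, MLL1 occupancy went with the number of CG in both genotypes. A peak overlapped 2.89% of windows with 0 to 4 CG in KO and 2.47% in WT. At 10 to 19 CG the shares were 58.7% in KO (interval 57.1 to 60.3%) and 46.0% in WT (44.4 to 47.7%). At 30 to 69 CG they reached 87.6% in KO (86.7 to 88.4%) and 76.1% in WT (75.01 to 77.1%). Windows overlapped by a KO peak alone had a median of 24 CG, and windows overlapped by a WT peak alone had a median of 9 CG. The median was 29 CG where both lists had a peak and 6 CG where neither had one. The KO-only windows numbered 2090 and the WT-only windows 228. Among windows that also carried H3K4me3, the medians were 25 CG for 1697 KO-only windows and 10 CG for 155 WT-only windows. KO peaks were wider (median 702 bp in KO and 307 bp in WT), so that they reach more windows, and the part of width and base composition in this difference was not tested.

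Of the 46868 regions, 13740 (29.3%) were KO-only, 18470 (39.4%) WT-only and 14658 (31.3%) shared. Shared regions lay mostly at promoters, defined as within 1 kb of the start of a protein-coding gene. For genes without a listed start, either gene end was used. Promoters made up 13.8% of KO-only regions (interval 13.2 to 14.4%), 6.52% of WT-only regions (6.17 to 6.88%) and 70.2% of shared regions (69.5 to 70.9%). Seen from the lists, 84.4% of KO promoter regions were also called in WT (83.8 to 85.1%), and 89.5% of WT promoter regions were also called in KO (89.0 to 90.1%). Outside promoters, 26.9% of KO regions were also called in WT (26.3 to 27.6%) and 20.2% of WT regions were also called in KO (19.7 to 20.7%). The WT list was longer at the submitted threshold, but 16436 KO peaks and 13337 WT peaks reached a −log10 q-value of 5, so which list is longer depends on the threshold. With both lists held to that value there were 5550 KO-only and 1425 WT-only regions, the opposite order of the counts above. Outside promoters, 37.9% of KO regions were then also called in WT and 62.3% of WT regions were also called in KO, again the opposite order. With both lists at an equal length of 28515 peaks, there were 14313 KO-only and 11642 WT-only regions, so that order also depends on list length. With promoters set by H3K4me3 in all 4 libraries in place of gene starts, the shares outside them were 12.8% of KO regions and 9.42% of WT regions.

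**Figure D1:**
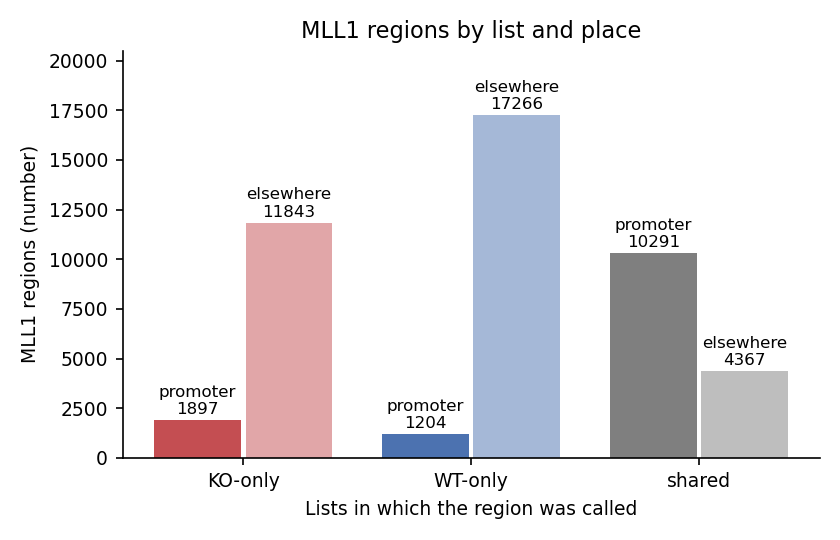
Number of merged MLL1 regions on chromosomes 1 to 22 (y axis) that were KO-only, WT-only or shared (x axis), split into promoter regions (dark bars) and regions elsewhere (light bars). Promoter regions number 10291 among shared regions, 1897 among KO-only and 1204 among WT-only.

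Regions called in 1 list were weak in that list. The fold enrichment that the authors deposited for each peak is the peak caller's own value, and it was used within a list. KO-only regions had a median fold of 5.16 at promoters and 4.26 elsewhere, and WT-only regions a median of 4.10 at promoters and 3.76 elsewhere. Shared promoter regions had a median of 33.0 in KO and 10.3 in WT. Shared regions elsewhere had a median of 9.36 in KO and 5.90 in WT.

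The share of regions also found in the other list went up with fold, and below 20-fold it was higher at promoters in each range of fold. Among KO regions of 6- to 10-fold, 64.6% of those at promoters (interval 61.7 to 67.3%) and 47.4% of those elsewhere (45.3 to 49.6%) were called in WT. Among WT regions of 4- to 6-fold, 74.6% of those at promoters (72.8 to 76.4%) and 19.2% of those elsewhere (18.4 to 19.99%) were called in KO. Of the KO promoter regions of at least 40-fold, 4222 of 4223 were also called in WT. WT regions of at least 40-fold were all called in KO, 146 at promoters and 14 elsewhere. WT regions of 4- to 6-fold had a median width of 438 bp at promoters and 246 bp elsewhere, whereas KO regions below 4-fold had 363 bp at promoters and 364 bp elsewhere. Counting a region only where its summit lay inside a peak of the other list, the shares for WT regions of 4- to 6-fold were 69.5% at promoters and 16.4% elsewhere.

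**Figure D2:**
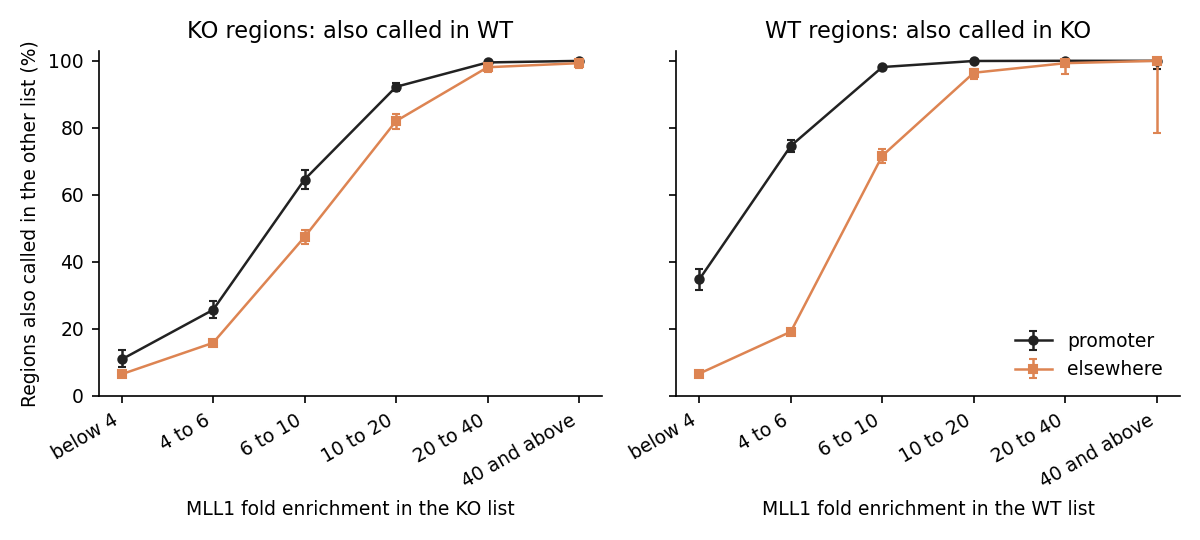
Percent of KO regions also called in WT (left) and of WT regions also called in KO (right), on the y axis, by the fold enrichment in the first list (x axis, ordered bins), with 95% Wilson intervals over regions. Promoter regions (circles) lie above regions elsewhere (squares) in the bins below 20-fold, and both reach nearly 100% above it.

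Shared regions kept much of their order between the genotypes. Across the 14658 shared regions Spearman's rho of KO and WT fold was 0.83, a description over regions that share both libraries. It was 0.83 across the 10291 at promoters and 0.66 across the 4367 elsewhere. As a percentile among all shared regions, the fold in KO less that in WT had a median of 1.37 points at promoters and −2.41 points elsewhere. A shift of at least 20 points up in KO was seen at 1152 promoter regions and a shift of at least 20 points down at 833. Elsewhere the numbers were 330 up and 702 down.

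**Figure D3:**
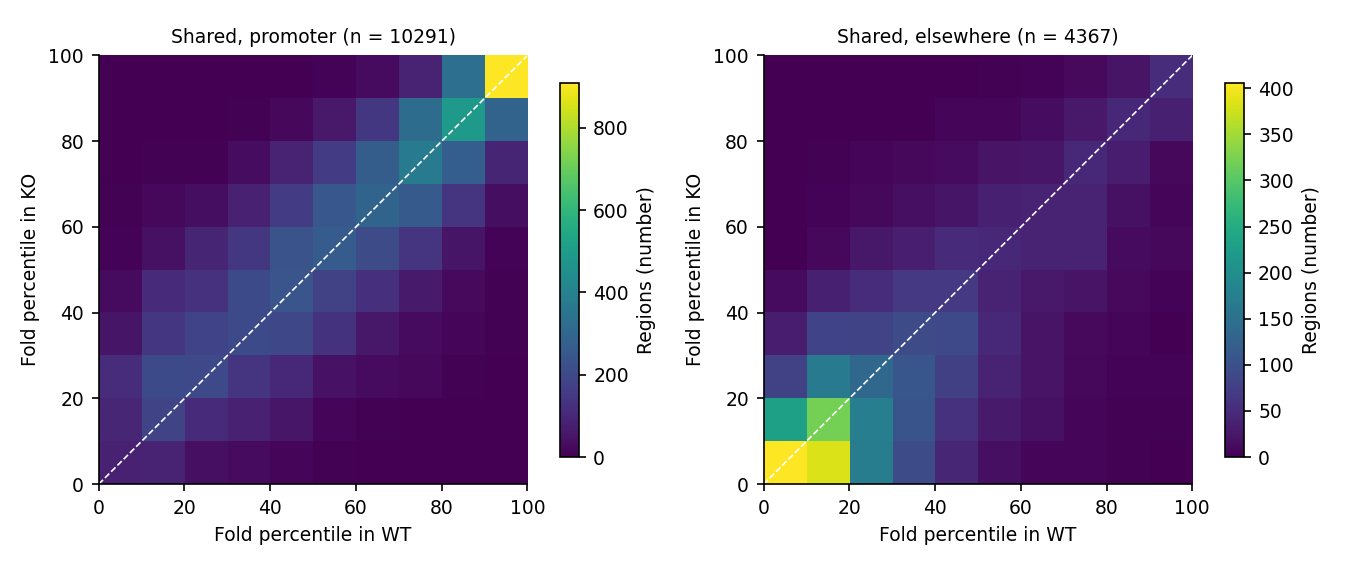
Fold percentile among all shared MLL1 regions in KO (y axis) against that in WT (x axis), in squares of 10 by 10 points coloured by the number of regions, for 10291 promoter regions (left) and 4367 regions elsewhere (right). Promoter regions crowd into the upper right corner and regions elsewhere into the lower left, both along the dashed line of equal percentile.

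Most shared regions were wider in KO. Median widths at promoters were 1612 bp in KO and 1159 bp in WT, and 84.3% of regions were wider in KO. Elsewhere they were 855 bp in KO and 540 bp in WT, with 78.9% wider in KO. The median log2 ratio of KO to WT width was 0.42 at promoters and 0.59 elsewhere. The narrowest peak of the list was 251 bp in KO and 161 bp in WT, and with these widths taken off the ratio elsewhere was 0.63.

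The 10 shared regions with the highest mean percentile over KO and WT were named for their place in both lists. The highest belonged to VWA8 (346-fold in KO, 120-fold in WT), a gene for a mitochondrial ATPase. It was followed by BAHCC1 (335-fold in KO, 139-fold in WT), which encodes a chromatin protein with a BAH domain. SMC4, a condensin subunit, had 502-fold in KO and 108-fold in WT. FAT1, a large cadherin, had 286-fold in KO and 80.6-fold in WT. MYC, the growth-promoting transcription factor, had 244-fold in KO and 191-fold in WT. LSM6 (307-fold in KO, 74.1-fold in WT), IRF2BPL (247-fold in KO, 90.8-fold in WT) and SMNDC1 (279-fold in KO, 61.1-fold in WT) were also among these 10. A region spanning APOLD1 and CDKN1B, the gene of the cell cycle inhibitor p27, had 247-fold in KO and 87.0-fold in WT. The only one of the 10 away from a protein-coding start covered the long noncoding RNA gene MIR31HG, with 274-fold in KO and 71.5-fold in WT. In these 10 regions H3K4me3 was called in every library of both genotypes.

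The widest shared promoter region covered 17503 bp in KO and 13284 bp in WT at BAHCC1. The next ran over HOXA9 and HOXA10, with 13177 bp in KO and 11531 bp in WT. TNRC18 (12210 bp in KO, 10785 bp in WT), ZNF503 (10627 bp in KO, 9375 bp in WT) and ACTG1, the gamma-actin gene (10555 bp in KO, 9192 bp in WT), came after it. Among the regions with the widest ratio of KO to WT width, PITPNM1 had 5458 bp in KO and 402 bp in WT, and CHRM4, a muscarinic receptor gene, had 2487 bp in KO and 183 bp in WT. The opposite was seen at a start of ACTN4, with 266 bp in KO and 2935 bp in WT. A region at a start of SMAD3 had 275 bp in KO and 2096 bp in WT. MYOF (287 bp in KO, 1352 bp in WT), CELF2 (519 bp in KO, 2418 bp in WT) and TM2D1 (464 bp in KO, 1497 bp in WT) were also narrower in KO.

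KO-only promoter regions were led by SIMC1, a SUMO-binding protein gene, with 51.8-fold in KO and the nearest WT peak 25152 bp away. CHRD, which encodes the secreted BMP antagonist chordin, had 35.0-fold in KO. DOCK8, an exchange factor for the small GTPase CDC42, had 31.1-fold in KO. MED4, a Mediator subunit, and FBLN5, an elastic fibre protein, both had 26.5-fold in KO. PCBP3, an RNA-binding protein gene, had 25.9-fold in KO, and NCDN and MARCHF9, a membrane ubiquitin ligase gene, had 25.3-fold in KO. LOC102724023 (30.4-fold in KO) and SPDYE10 (27.2-fold in KO) completed the 10. SPDYE10 belongs to a multicopy family, so its reads may come from other copies. A WT peak lay 688 bp from the MARCHF9 region and 1430 bp from the SPDYE10 region, and 12748 bp or more from the other 8.

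H3K4me3 was present at these KO-only promoters in both genotypes. SIMC1 had H3K4me3 folds of 43.7 and 128 in the KO libraries and 67.2 and 156 in the WT libraries. CHRD had 46.2 and 140 in the KO libraries and 59.1 and 71.1 in the WT libraries. MED4 had 83.3 and 104 in the KO libraries and 87.1 and 203 in the WT libraries. All 10 promoters had H3K4me3 called in all 4 libraries. Over the KO-only promoter regions of 10- to 20-fold, H3K4me3 was called in both KO libraries at 96.3% and in both WT libraries at 95.1% of 164 regions. Over those below 4-fold the shares were 22.96% in KO and 18.1% in WT, of 540 regions.

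Many WT-only promoter regions lay beside a KO peak. A gene called in both lists was within 1 kb of 41.6% of the 1897 KO-only promoter regions (interval 39.4 to 43.9%) and of 71.1% of the 1204 WT-only promoter regions (68.5 to 73.6%). The nearest peak of the other list was at a median distance of 5532 bp for KO-only and 571 bp for WT-only promoter regions. The highest WT-only promoter region, with 12.4-fold in WT, lay over GAS5, a long noncoding RNA gene that hosts small nucleolar RNAs, near the start of ZBTB37 and 45 bp from a KO peak. The region near EIF4E, the cap-binding translation factor gene, had 9.75-fold in WT and lay 168 bp from a KO peak. PNISR, with 8.60-fold in WT, lay 426 bp from a KO peak, and RTBDN, with 8.21-fold in WT, lay 52 bp from one. TXN2, the mitochondrial thioredoxin gene, had 8.60-fold in WT at a region 11670 bp from a KO peak, but the gene had a peak near a start in both lists.

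The remaining WT-only promoters of the 10 were at genes with no KO peak near a start. ABCC2, an export pump of the ABC transporter family, had 9.28-fold in WT over 3101 bp, with the nearest KO peak 49770 bp away. LRP12, a relative of the LDL receptor, had 9.23-fold in WT, with the nearest KO peak 797763 bp away. LRP12 had H3K4me3 folds of 75.4 and 74.2 in the WT libraries, and no H3K4me3 peak in either KO library. The ABCC2 region had H3K4me3 folds of 7.59 and 8.83 in the WT libraries and no peak in the KO libraries. Another WT-only MLL1 region, 1575 bp from an ABCC2 start, had H3K4me3 in all 4 libraries. The folds there were 16.9 and 13.1 in KO and 9.48 and 8.39 in WT. FKBP14, a peptidyl-prolyl isomerase of the endoplasmic reticulum, had 8.60-fold in WT with the nearest KO peak 744 bp from the region, and its H3K4me3 was called in all 4 libraries. LOC124904333 (9.13-fold in WT) and USP17L22 (10.7-fold in WT), a member of a multicopy family, had no H3K4me3 in any library.

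The summits of shared promoter regions sat just downstream of gene starts. Their median position was 171 bp downstream in KO (81.0% of 8188 summits within 1 kb were downstream) and 204 bp downstream in WT (78.6% of 8069). KO-only summits had a median of 102 bp downstream, with 62.6% of 1204 downstream. WT-only summits had a median of −34 bp, that is upstream of the start, with 47.8% of 730 downstream. The quartiles of KO-only summits were at −140 and 315 bp, and those of WT-only summits at −602 and 490 bp. Within shared regions the KO and WT summits were 107 bp apart at the median promoter region and 112 bp apart elsewhere.

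**Figure D4:**
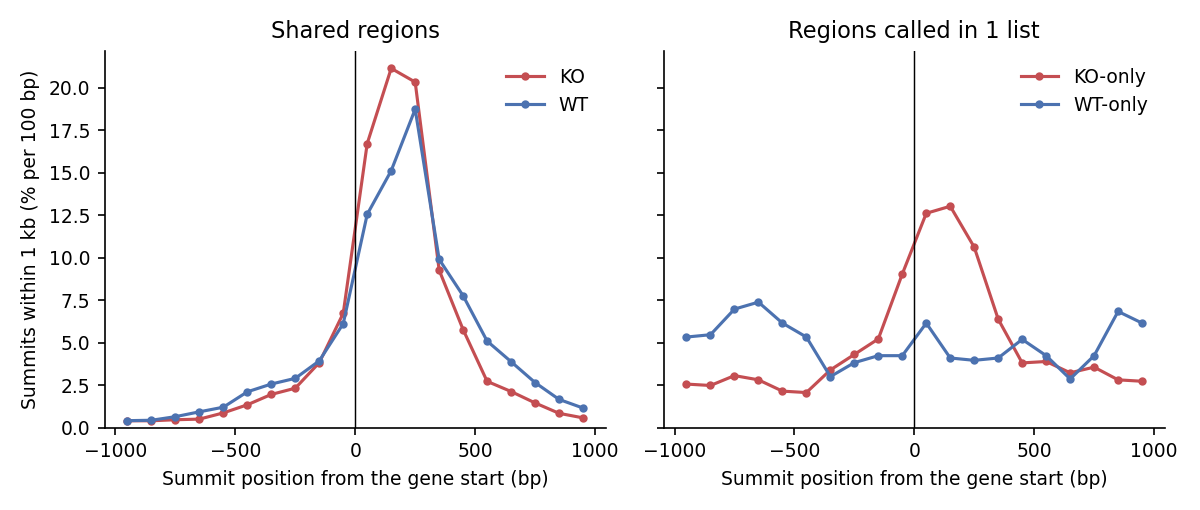
Share of MLL1 summits per 100 bp (y axis, percent of summits within 1 kb) by distance from the nearest gene start (x axis, bp, negative upstream), for shared regions in KO and WT (left) and for KO-only and WT-only regions (right). Shared and KO-only summits peak just downstream of the start, and WT-only summits are spread over the flanks.

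By gene, 11128 of 19122 protein-coding genes (58.2%) had an MLL1 peak within 1 kb of a start in both lists. A further 1140 (5.96%) had one in KO alone and 339 (1.77%) in WT alone. A listed start was available for 15100 of the 19122 genes, and the others were placed by either gene end. H3K4me3 was called per library at 99.2% and 99.3% (KO) and 99.3% and 98.9% (WT) of the genes called in both. At genes called in KO alone the shares were 47.4% and 48.9% in the KO libraries and 48.2% and 46.5% in the WT libraries. At genes called in WT alone they were 27.1% and 28.3% in the KO libraries and 36.6% and 33.6% in the WT libraries. At genes with no MLL1 peak they ran from 3.67 to 5.53%.

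Among genes called in both lists, the percentile of the fold over these 11128 genes was at least 20 points higher in KO for 1228 genes (11%) and at least 20 points lower for 1215 (10.9%). On the percentile over all shared regions, the widest shifts up at promoter regions were at PRRT4 (72.1-fold in KO, 4.95-fold in WT), UBALD2 (63.3-fold in KO, 5.33-fold in WT) and TPRN (45.3-fold in KO, 4.30-fold in WT). FAM117A, CFAP92 and PPM1J were also among these 10, with KO folds of 39.6, 55.4 and 38.2. MAPRE1, the gene of a microtubule plus-end protein, and PFKL, a phosphofructokinase gene, each had 36.3-fold in KO and 3.76-fold in WT. CLCN7, a lysosomal chloride transporter gene, had 49.2-fold in KO and 4.84-fold in WT, and NAT8L, which encodes an N-acetylaspartate synthase, had 46.0-fold in KO and 4.84-fold in WT.

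A gene can have several starts, and which of its starts a promoter region lies at was not examined. On the percentile over shared regions, the widest shift down was at a start of ACTN4, the gene of an actin crosslinker. The region had 3.89-fold in KO and 18.3-fold in WT. There H3K4me3 was called in the WT libraries (11.5- and 19.7-fold) and in neither KO library. The region of RN7SK, the 7SK small nuclear RNA gene, beside GSTA4 had 8.44-fold in KO and 48.0-fold in WT. It also had a 310-fold MLL4 peak in WT, no H3K4me3 peak in any library and nearly the same width in both lists, 283 bp in KO and 296 bp in WT. The region at a start of SMAD3, a transducer of TGF-beta signals, had 5.18-fold in KO and 13.6-fold in WT. Its H3K4me3 was called in the WT libraries alone (10.0- and 13.2-fold). CELF2 (6.48-fold in KO, 18.0-fold in WT) and SYNJ2BP (8.42-fold in KO, 19.3-fold in WT) had the same order of MLL1 fold. CELF2 had H3K4me3 in both KO libraries (19.4- and 18.1-fold) and in the first WT library (32.3-fold), not the second. PKIA, a protein kinase A inhibitor gene, had 3.89-fold in KO and 12.9-fold in WT, with H3K4me3 folds of 43.6 and 49.7 in WT and no call in KO. TXNRD1, a thioredoxin reductase gene, had 9.71-fold in KO and 18.3-fold in WT. CYP24A1, the vitamin D-degrading enzyme gene, had 16.2-fold in KO and 30.6-fold in WT. LSM5 had 13.6-fold in KO and 25.8-fold in WT, and LOC124904075, within RPTOR, had 11.2-fold in KO and 21.5-fold in WT. At SYNJ2BP, TXNRD1, CYP24A1, LSM5 and LOC124904075 H3K4me3 was called in all 4 libraries.

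HOX and menin-MLL1 target genes are the best known MLL1 sites. On the list used here 25 of 37 (67.6%) were called in both lists, 2 in KO alone and 10 in neither. Over all protein-coding genes the shares were 58.2% in both, 5.96% in KO alone and 34.1% in neither. HOXA9 and HOXA10 share a region with 189-fold in KO and 101-fold in WT, at percentiles of 99.4 in KO and 99.9 in WT. HOXA11 had 152-fold in KO and 32.8-fold in WT, and HOXC9 had 104-fold in KO and 19.3-fold in WT. HOXA3 (30.3-fold in KO, 19.3-fold in WT) stood 38.7 percentile points lower in KO, and HOXB8 (64.5-fold in KO, 8.99-fold in WT) stood 40.8 points higher. The 2 called in KO alone were HOXC10 (7.77-fold, with H3K4me3 in all 4 libraries) and HOXC8 (3.89-fold, with H3K4me3 in none). MEIS1, a HOX cofactor, had no MLL1 and no H3K4me3 call, and HOXD1, HOXD3, HOXD4, HOXD9, HOXD10 and HOXD13 had no MLL1 call either. HOXD8 was called in both lists (43.8-fold in KO, 13.6-fold in WT), with H3K4me3 in all 4 libraries. Adjacent HOX genes share regions and peaks, so they are not separate observations.

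Genes of the H3K4 methyltransferase complexes were nearly all bound in both lists, 19 of 20 (95%, beside 58.2% of all genes), with SETD1B in neither. KMT2A itself had 71.2-fold in KO and 12.4-fold in WT, at percentiles of 82.3 in KO and 58.6 in WT. The start of KMT2D, the MLL4 gene, had 70.6-fold in KO and 16.1-fold in WT. KMT2C, the closest relative of MLL4, had 65.4-fold in KO and 26.3-fold in WT, and KMT2B had 34.3-fold in KO and 6.45-fold in WT. MEN1 had 22.7-fold in KO and 9.67-fold in WT, and PSIP1 had 102.6-fold in KO and 18.5-fold in WT. Of the 19, 3 stood at least 20 percentile points higher in KO (15.8%, beside 11% of all genes called in both) and 1, ASH2L, lower (5.26%, beside 10.9%). Of 5 H3K4 demethylase genes 4 were called in both (80%, beside 58.2% of all genes), and RIOX1 had a 4.53-fold peak in KO alone. The highest were KDM1A (127-fold in KO, 27.4-fold in WT) and KDM5A (55.0-fold in KO, 17.4-fold in WT).

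Target genes of p53 were called in both lists at 27 of 29 (93.1%, beside 58.2% of all genes). CDKN1A, the cell cycle inhibitor p21, had 20.1-fold in KO and 6.67-fold in WT. MDM2, the ubiquitin ligase of p53, had 43.4-fold in KO and 8.60-fold in WT, 25.5 percentile points higher in KO. SESN1 had 181-fold in KO and 26.9-fold in WT, and PHLDA3 had 85.5-fold in KO and 25.3-fold in WT. Of the 27, 3 stood at least 20 points higher in KO (11.1%, beside 11% of all genes called in both) and 6 lower (22.2%, beside 10.9%). Their median difference was −3.38 points, beside 0.16 over all genes called in both. Cell cycle genes were called in both lists at 32 of 33 (97.0%, beside 58.2% of all genes). Among them were MKI67 (199-fold in KO, 40.8-fold in WT) and CCND1, the cyclin D1 gene (175-fold in KO, 54.3-fold in WT). CDKN1B had 148-fold in KO and 43.0-fold in WT at its own start, and CDKN2C had 98.4-fold in KO and 25.8-fold in WT.

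Cytosolic ribosomal protein genes ranked lower among MLL1 targets in KO. All but 1 of 53 were called in both lists (98.1%, beside 58.2% of all genes). Their median percentile difference was −12.6 points, beside 0.16 points over all 11128 genes. A shift of at least 20 points down was seen at 19 of the 52 (36.5%, beside 10.9% of all genes), and a shift up at 4 (7.69%, beside 11%). RPL12 had 21.5-fold in KO and 17.2-fold in WT (46.9 points lower in KO), RPS3 had 19.9-fold in KO and 15.4-fold in WT (43.8 points lower), and RPL37 had 29.3-fold in KO and 20.4-fold in WT (42.4 points lower). RPL7 (89.1-fold in KO, 53.7-fold in WT) and RPL15 (92.5-fold in KO, 36.5-fold in WT) had the highest mean percentiles. RPL18 had a 6.48-fold peak in KO alone. Housekeeping genes were called in both lists at all 18 measured (beside 58.2% of all genes). Their median difference was −10.1 points, with 6 lower by at least 20 points (33.3%, beside 10.9%) and 1 higher (5.56%, beside 11%). EEF1A1, a translation elongation factor gene, had 54.6-fold in KO and 21.0-fold in WT, and TFRC, the transferrin receptor gene, had 77.1-fold in KO and 16.1-fold in WT. Ranked by −log10 q-value in place of fold, the medians were −12.5 points for ribosomal protein genes and −8.97 points for housekeeping genes.

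Genes of the colon epithelium and the Wnt pathway were called in both lists at 17 of 25 (68%, beside 58.2% of all genes). TCF7L2, the Wnt effector, had 221-fold in KO and 56.5-fold in WT, and EPCAM, an epithelial adhesion gene, had 89.4-fold in KO and 26.9-fold in WT. ASCL2 (12.3-fold) and LGR5 (5.18-fold), both markers of intestinal stem cells, were called in KO alone, with H3K4me3 in all 4 libraries. These were 2 of the 25 genes, and over all genes 5.96% were called in KO alone and 1.77% in WT alone. The median fold of all genes called in KO alone was 5.18. KRT8, an epithelial keratin gene, had a 3.30-fold peak in WT alone, and its H3K4me3 was called in both WT libraries and in neither KO library. Of 20 AP-1 and immediate early genes 17 were called in both (85%, beside 58.2% of all genes). DUSP6 was among them, with 129-fold in KO and 39.2-fold in WT. ATF3 had a 3.22-fold peak in WT alone, without H3K4me3. JUND had 7.63-fold in KO, and the WT peak of its shared region (4.62-fold) lay more than 1 kb from the start.

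Of lineage genes that colon cells are not known for, 4 of 17 blood genes and 4 of 17 neuronal genes were called in both lists. CD8A had 20.5-fold in KO and 11.8-fold in WT, and IKZF3 had 14.4-fold in KO and 4.62-fold in WT. CD3E had a 3.24-fold peak in KO alone, without H3K4me3. PAX6 had 88.0-fold in KO and 22.03-fold in WT, and SYT1 had 24.6-fold in KO and 7.52-fold in WT. SNAP25 had 9.71-fold in KO alone with H3K4me3 in all 4 libraries, and NEUROD1 had 3.76-fold in WT alone without it. Of 39 developmental regulators 18 were called in both, 19 in neither, and SIX2 (11.01-fold) and WT1 (4.53-fold) in KO alone. OTX1 (127-fold in KO, 21.5-fold in WT) and GATA2 (79.7-fold in KO, 25.3-fold in WT) ranked highest among them. The shares called in both lists are to be read beside 58.2% of all genes, and those in neither beside 34.1%. Those in KO alone are to be read beside 5.96% and those in WT alone beside 1.77%.

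Away from promoters, 51.0% of all KO-only regions and 49.2% of all WT-only regions lay inside a protein-coding gene and away from its start. Outside protein-coding genes lay 32.2% of KO-only regions and 42.4% of WT-only regions. Of 439 tRNA genes, 43 were overlapped by a KO peak alone, 16 by a WT peak alone and 24 by both. A tRNA gene inside a shared region can still be overlapped by the KO peak alone. Counted as regions, a tRNA gene was overlapped by 14 of 13740 KO-only, 12 of 18470 WT-only and 53 of 14658 shared regions. The KO-only region of highest fold elsewhere lay 11536 bp from a start of FAM20C, a secretory pathway kinase gene, with 62.8-fold in KO. The next were near FXYD3, a regulator of the sodium pump (56.0-fold in KO), inside UVSSA, a transcription-coupled repair gene (51.2-fold in KO), inside ATAD3A (38.2-fold in KO) and in LOC124900172 beside PCGF3 (37.6-fold in KO). Each of these 5 regions had an MLL4 peak in WT, with folds of 38.8, 51.9, 30.01, 13.3 and 9.17, and none had an H3K4me3 peak. Of all KO-only regions elsewhere, 10 of 13 at 20- to 40-fold and 3 of 3 at 40-fold or above had a WT MLL4 peak. Shared regions elsewhere of the same KO folds had one at 56.2% of 665 and 66.6% of 422.

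The WT-only region of highest fold elsewhere was 199 bp wide and lay over RN7SL4P, a signal recognition particle RNA pseudogene inside ANKRD28, with 37.1-fold in WT and a 167-fold MLL4 peak in WT. The next lay over RNA18SP5, an 18S ribosomal RNA pseudogene on chromosome 21, with 19.9-fold in WT. Both are copies of repeated genes, so their reads may come from other copies. The others were near LOC124903317 (14.4-fold in WT), near ABCC2 (14.2-fold in WT) and in LINC-PINT (13.4-fold in WT), a long noncoding RNA gene known as a p53 target.

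Regions assigned to the nearest protein-coding gene within 100 kb were uneven between genes. The most KO-only regions were assigned to ADGRB1, with 17 KO-only and 7 WT-only regions. AP3D1 had 16 KO-only and 5 WT-only regions, COL18A1 had 16 KO-only and 4 WT-only regions, and CACNA1H had 15 KO-only and 7 WT-only regions. BAHCC1 had 14 KO-only and 10 WT-only regions. The most WT-only regions were assigned to PDP1, with 2 KO-only and 22 WT-only regions. SEPTIN9 had 12 KO-only and 21 WT-only regions, SMAD3 had 2 KO-only and 20 WT-only regions, and TACC2 had 1 KO-only and 20 WT-only regions. LOC124903857 had 8 KO-only and 19 WT-only regions. By chromosome, the share of KO regions that were KO-only was 63.2% on chromosome 21, with a median of 47.7% over the 22 chromosomes. The share of WT regions that were WT-only was 66.3% on chromosome 8 and 64.3% on chromosome 10, with a median of 54.7%. There were 0.671 WT-only regions per KO-only region on chromosome 19 and 2.03 on chromosome 10, with a median of 1.36. No cause of these differences was tested.

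The other peak lists describe the chromatin at these sites. Among regions elsewhere, an MLL4 peak in WT overlapped 18.0% of KO-only regions (interval 17.3 to 18.7%), 5.45% of WT-only regions (5.12 to 5.80%) and 41.4% of shared regions (39.9 to 42.8%). At promoters the shares were 27.4% of KO-only, 8.31% of WT-only and 51.9% of shared regions. The share went up with the MLL1 fold: among KO-only regions elsewhere it was 11.5% of 5758 regions below 4-fold and 56.5% of 216 regions of 10- to 20-fold. Shared regions elsewhere of the same KO fold of 10 to 20 had an MLL4 peak at 47.3% of 986. Among WT-only regions elsewhere it was 4.65% of 9373 regions below 4-fold and 30.4% of 23 regions of 10- to 20-fold.

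H3K27ac in WT overlapped 63.9% and 70.1% of KO-only regions elsewhere in the 2 libraries, and 44.5% and 47.0% of WT-only regions elsewhere. In KO, H3K27ac overlapped 33.8% and 28.3% of KO-only regions elsewhere and 23.4% and 22.4% of WT-only regions elsewhere. In shared regions elsewhere the shares were 82.5% and 81.6% in KO and 93.9% in both WT libraries. H3K4me1 had 24.8% in KO and 60.7% in WT for KO-only regions elsewhere, and 18.5% in KO and 52.9% in WT for WT-only regions. No H3K4me3, H3K27ac or H3K4me1 peak was called in 24.2% of KO-only regions elsewhere (23.4 to 24.96%), 39.6% of WT-only regions elsewhere (38.9 to 40.4%) and 1.14% of shared regions elsewhere (0.870 to 1.51%), by a rule that asked for both libraries of at least 1 genotype where there were 2.

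Peaks of p53 also overlapped the MLL1 regions unevenly. They covered 19.9% and 40.4% (KO libraries) and 27.04% and 24.8% (WT libraries) of KO-only regions elsewhere. For WT-only regions elsewhere the shares were 3.01% and 7.65% in the KO libraries and 3.25% and 2.48% in the WT libraries. In windows of 200 bp around the MLL1 summit, which remove the difference in width, they were 17.8% and 36.9% in KO and 24.3% and 22.9% in WT for KO-only regions, and 2.88% and 7.16% in KO and 2.95% and 2.32% in WT for WT-only regions. At promoters p53 peaks overlapped 47.7% and 68.5% in KO and 52.8% and 50.8% in WT of KO-only regions, against 7.97% and 17.1% in KO and 7.89% and 7.64% in WT of WT-only regions. The order was thus the same in all 4 p53 libraries, those of WT cells included. The part of base composition in it was not tested.

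**Figure D5:**
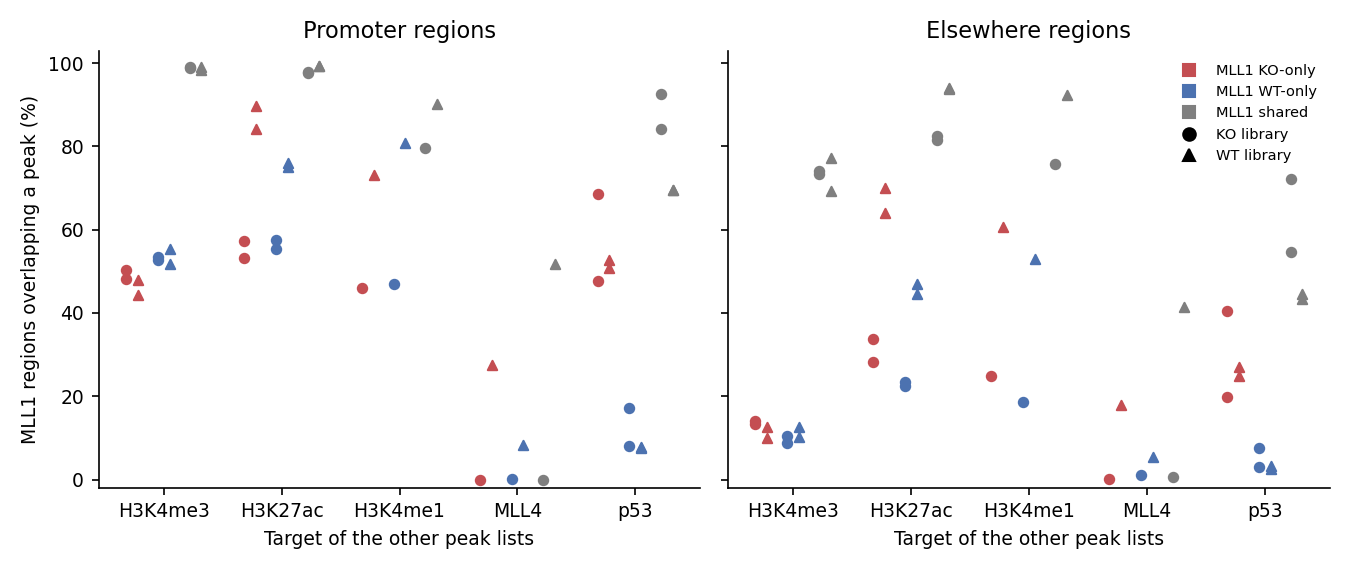
Percent of MLL1 regions (y axis) that overlap a peak of each other target (x axis), for KO-only, WT-only and shared regions at promoters (left) and elsewhere (right), with 1 point per library, circles for KO and triangles for WT libraries. KO-only regions lie above WT-only regions for H3K27ac in WT, MLL4 in WT and p53 in each library elsewhere, and shared regions lie above both.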

How the data were processed

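Peaks were called with MACS2 2.1.1 on hg38, per the submitters' processing notes, and per the names inside the deposited files each list was called on 1 library with the input of its own genotype. The aligner and the read filters were not given in the sources used here. Read depth is unknown. Per the file headers there is no column line, so the narrowPeak columns were read by position: column 7 is the fold enrichment (a linear ratio) at the summit that the authors deposited, columns 8 and 9 their −log10 p-value and −log10 q-value, and column 5 a deposited score that was not used.

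Peaks on chromosomes 1 to 22 were merged at an overlap of 1 bp. A region's fold is the highest fold, and its width the bases covered, of the peaks of a list inside it. Gene starts came from the RefSeq promoter table (GRCh38.p14), and genes missing from it were placed by either end. H3K4me3 at a region means a peak in both libraries of at least 1 genotype, unless given per library. Values were computed with Python 3.11.15, pandas 2.3.3, numpy 2.4.6 and scipy 1.17.1, and the merging was tested on simulated peaks. Named items are the 10 promoter regions of highest fold called in 1 list, the 5 such regions elsewhere, the 10 highest shared regions, the 10 widest percentile shifts each way, the 5 widest and 5 widest width ratios each way, the 5 genes with most regions of 1 list, list members called in 1 list or ranked highest, and 10 fixed genes. Further members of the HOX, methyltransferase complex and ribosomal protein lists were chosen after their values were seen. The members and gene lists were chosen with earlier results of these data known. A p-value could not be given with 1 MLL1 library per genotype. One region that the rule on widths names is not reported here.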

Additional observations from a re-analysis of the deposited data

Results flagged for a closer look

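Chromosome X was outside the comparisons above, and MLL1 peaks were present there in both lists. The KO list held 557 MLL1 peaks on chromosome X and the WT list 514.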

How the results depend on the processing

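No paired analysis was possible because MLL1 has 1 library per genotype and the results come from no test. Of 139 recomputed results, 49 moved by less than their interval or, for counts of regions, stayed within 1.5 times, 89 moved and 1 reversed. The reversal was the log2 ratio of KO to WT peak number, −0.35 as deposited and 0.30 with a −log10 q-value of at least 5, and it was −0.18 with a fold of at least 4. With all deposited peaks, H3K4me3 was at 17.6% of KO-only and 13.8% of WT-only regions, and a WT MLL4 peak at 19.3% of KO-only and 5.64% of WT-only regions. Promoter regions were also called in the other list more often than regions elsewhere under every alternative run.

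With a −log10 q-value of at least 5, there were 5550 KO-only and 1425 WT-only regions. KO regions were then also called in WT at 80.7% (promoter) and 37.9% (elsewhere), and WT regions also called in KO at 98.3% (promoter) and 62.3% (elsewhere), and shares below keep this order of promoter and elsewhere. Spearman's rho was 0.78, the percentile difference elsewhere −3.36 points, and the log2 width ratios 0.39 at promoters and 0.44 elsewhere. H3K4me3 was at 63.7% of KO-only and 39.5% of WT-only regions, and a WT MLL4 peak at 38.2% of KO-only and 16.4% of WT-only regions. With a fold of at least 4, there were 8256 KO-only and 8828 WT-only regions, also-called shares of 85.8% and 34.2% for KO and 93.7% and 29.7% for WT, a rho of 0.82, a percentile difference elsewhere of −2.78 points and a width ratio elsewhere of 0.55. H3K4me3 was then at 30.3% of KO-only and 20.2% of WT-only regions, and WT MLL4 at 26.3% of KO-only and 6.88% of WT-only regions. With lists of equal length (28515 peaks), there were 14313 KO-only and 11642 WT-only regions, the opposite order of the counts from all deposited peaks. Shares were then 83.0% and 24.5% for KO and 92.3% and 26.9% for WT, rho was 0.83 and the width ratio elsewhere 0.55. H3K4me3 was at 19.3% of KO-only and 16.9% of WT-only regions, and WT MLL4 at 6.71% of WT-only regions.

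With peaks up to 500 bp apart merged, shares were 87.8% and 29.7% for KO and 94.5% and 22.5% for WT, rho was 0.84, H3K4me3 was at 14.0% of KO-only and 8.33% of WT-only regions, and WT MLL4 at 5.07% of WT-only regions. With an overlap of 50% of the shorter peak, shares were 83.5% and 24.97% for KO and 88.5% and 18.7% for WT. With −log10 q-value in place of fold, rho was 0.84. With chromosome X, H3K4me3 was at 18.3% of KO-only regions.

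With promoters set by either gene end, shares were 81.5% and 29.8% for KO and 86.8% and 22.4% for WT, the percentile difference elsewhere was −1.66 points and the width ratio elsewhere 0.55. With promoters within 5 kb, the promoter shares were 70.4% for KO and 72.9% for WT, the WT share elsewhere 19.1%, the percentile difference at promoters 1.01 points and the width ratio there 0.43. With promoters set by H3K4me3 in all 4 libraries, shares were 88.3% and 12.8% for KO and 9.42% elsewhere for WT, the percentile differences 0.87 and −2.84 points, and the width ratios 0.43 and 0.74. Leaving out each H3K4me3 library gave H3K4me3 at 18.7 to 19.8% of KO-only and 14.6 to 16.3% of WT-only regions.

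Alternatives chosen after seeing the data were promoters by table starts alone, 200 bp around the summit, and widths less the lowest width of the list. The first gave 86.1% and 33.1% for KO and 90.8% and 25.8% for WT, −1.26 points and a width ratio of 0.55 elsewhere. The second gave H3K4me3 at 16.4% of KO-only and 13.2% of WT-only regions and WT MLL4 at 14.8% of KO-only and 5.21% of WT-only regions. The third gave a width ratio of 0.63 elsewhere. The cause of these shifts was not tested. The unknown read depth limits every count of regions called in 1 list, most of which had a low fold.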

Other observations

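The MLL4 list of KO cells was nearly empty, and its peaks were unevenly placed among MLL1 regions. An MLL4 peak called in KO overlapped 2 of 11843 KO-only regions elsewhere, 170 of 17266 WT-only regions elsewhere and 26 of 4367 shared regions elsewhere. No KO-only and no shared promoter region carried one, and 2 of 1204 WT-only promoter regions did. An MLL4 peak called in WT overlapped 2132 KO-only, 941 WT-only and 1807 shared regions elsewhere.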
